A study of Homo sapiens with 2 samples.

Results

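The genes described here set the pace of the G1 phase: the D-type cyclins CCND1, CCND2 and CCND3, their kinases CDK4 and CDK6, the retinoblastoma gene RB1, the CDK inhibitor genes CDKN1B, CDKN2C and CDKN2D, and SKP2. They are 10 genes chosen by name, with earlier results of these data known. A probe set, the group of short probes that reads 1 transcript region, was taken when its only gene symbol in the platform annotation was one of the 10. This gave 24 probe sets of 54675, for 9 of the 19775 genes that the array reads by a single symbol. CDKN2C was not analysed here, because no probe set carried it as the only symbol.

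The study compared 2 samples labelled as U87, an established human glioblastoma line grown in serum-containing medium. In one, FOXM1, which encodes a forkhead factor of the cell division programme, was targeted by siRNA, and the other received a non-target siRNA, both by the same lipid transfection. RNA was collected after 48 hours and hybridised to 1 array per sample, so there is no SD between samples and no p-value, and every difference below compares 2 arrays. The labels name no clone, and 1 culture per condition is the limit of the model.

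D-type cyclins are made in response to growth signals and bind CDK4 or CDK6. The active kinases phosphorylate the RB1 protein, which then releases E2F transcription factors, and these switch on the genes for DNA replication. Inhibitors of the INK4 family, which includes CDKN2C and CDKN2D, block CDK4 and CDK6, whereas CDKN1B (p27) acts mainly on cyclin E and A complexes with CDK2. SKP2 is the subunit of a ubiquitin ligase that marks p27 for destruction. In gliomas this axis is often altered by loss of CDKN2A or RB1 or by gain of CDK4 or CDK6.

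Values are linear signal intensities. A floor was set on each array from olfactory receptor probe sets, whose genes are silent in most tissues, at 77.7 in the sample labelled FOXM1 siRNA and 60.8 in the sample labelled non-target siRNA. Log2 differences are FOXM1 siRNA minus non-target siRNA, and where only 1 array was above its floor, the difference is a bound against the floor of the other. Each gene is represented by its brightest probe set. The only error the arrays hold is the disagreement between probe sets of the same gene, with an SD of 0.50 on the log2 scale per probe set over 5476 genes. That SD does not include variation between cultures or arrays. FOXM1 itself read 1343 in the sample labelled FOXM1 siRNA and 1520 in the sample labelled non-target siRNA, a log2 difference of -0.18, within that SD. The labels are therefore not checked by the target transcript, and all directions are those of the arrays as labelled. In whole-culture RNA, fewer cells of a kind and less RNA per cell cannot be told apart.

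The 9 measured genes went in both directions. In the sample labelled FOXM1 siRNA, CCND1, CCND3 and CDKN2D passed the 2-fold threshold on the higher side and CCND2 and SKP2 on the lower side, while CDK4, CDK6, RB1 and CDKN1B differed by less. Over all 13865 genes above the floor on at least 1 array, 31.4% differed by 2-fold or more, 16.0% on the higher and 15.4% on the lower side, so differences of this size were common between these arrays. The median log2 difference of the 9 genes was 0.34, beside -0.02 over all detected genes. It turned to -0.03 with the median of each gene's probe sets and was 0.04 with the hybridisation controls set equal. All 9 were above the floor on both arrays in their brightest probe set. Of their 24 probe sets, 15 were above the floor on both arrays, 4 on 1 array and 5 on neither.

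**Figure D1:**
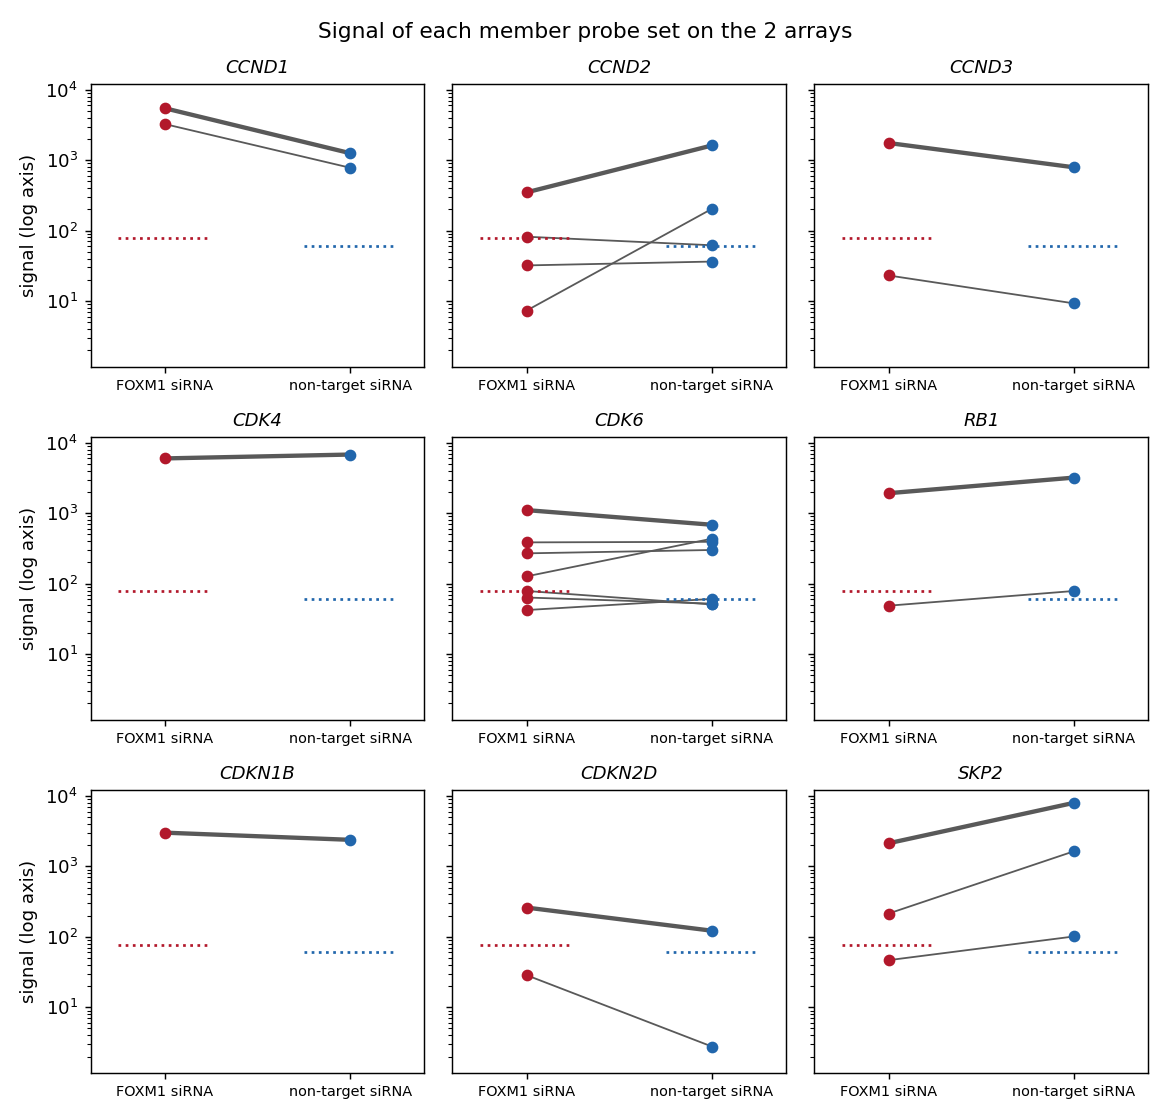
Signal intensity (log axis) of each of the 24 probe sets of 9 G1 genes in the sample labelled FOXM1 siRNA (red, left) and the sample labelled non-target siRNA (blue, right). Each line joins 1 probe set, the thick line is the probe set that represents the gene, and dotted lines are the floors of 77.7 and 60.8. Both CCND1 lines and all 3 SKP2 lines run the same way within their gene, whereas the 7 CDK6 lines cross.

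Among the D cyclins, CCND1 and CCND3 were higher and CCND2 lower. CCND1, the D cyclin most often induced by mitogens and most often amplified in tumours, had 2 probe sets. The brighter one (208712_at) read 5456 in the sample labelled FOXM1 siRNA and 1254 in the sample labelled non-target siRNA, a 4.35-fold difference. The other (208711_s_at) read 3252 in the sample labelled FOXM1 siRNA and 779 in the sample labelled non-target siRNA, 4.17-fold higher. The log2 differences of 2.12 and 2.06 had an SD of 0.04, far below the 0.50 typical of probe sets. Among the 13449 detected genes with a log2 difference, 94.2% lay below CCND1.

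CCND2, a D cyclin with roles in neural progenitors, lymphocytes and gonads, differed in the opposite direction. Its brightest probe set (200953_s_at) read 348 in the sample labelled FOXM1 siRNA and 1616 in the sample labelled non-target siRNA, 4.64-fold lower (log2 difference -2.21). Only 3.18% of detected genes lay below it. A second probe set (200951_s_at) read 7.30 in the sample labelled FOXM1 siRNA, under its floor, and 204 in the sample labelled non-target siRNA, which makes it at least 2.62-fold lower. The remaining pair gave no such difference. One (231259_s_at) read 81.7 in the sample labelled FOXM1 siRNA and 61.8 in the sample labelled non-target siRNA, both within a few units of the floor. The other (200952_s_at) read 32.0 in the sample labelled FOXM1 siRNA and 36.3 in the sample labelled non-target siRNA, below both floors. All 4 CCND2 probe sets have IDs ending in _s_at, a kind that can match more than 1 transcript.

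CCND3, the D cyclin best known from lymphocyte development, had 1 informative probe set. It read 1750 in the sample labelled FOXM1 siRNA and 790 in the sample labelled non-target siRNA, 2.21-fold higher (log2 difference 1.15). The second probe set, at 23.0 in the sample labelled FOXM1 siRNA and 9.24 in the sample labelled non-target siRNA, was below both floors. With the hybridisation controls set equal between the arrays, CCND3 was 0.84 higher on the log2 scale, under 2-fold, while CCND1 and CCND2 stayed beyond 2-fold at 1.82 and -2.52. The log2 difference of CCND1 exceeded that of CCND2 by 4.33, and that of CCND3 exceeded it by 3.36. These contrasts between genes within the same pair of arrays do not depend on a scaling factor applied to a whole array. They compare differences, not levels, since probe sets of different genes do not read on a common scale.

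The catalytic partners differed less. CDK4, the kinase partner of D cyclins whose gene is amplified in a subset of gliomas, read 6010 in the sample labelled FOXM1 siRNA and 6818 in the sample labelled non-target siRNA in its single probe set. The log2 difference was -0.18, within the probe set SD of 0.50.

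CDK6, the second D-cyclin kinase, gave probe sets that disagreed. The brightest (224847_at) read 1109 in the sample labelled FOXM1 siRNA and 687 in the sample labelled non-target siRNA, 1.61-fold higher. A further pair differed little, 224848_at with 386 in the sample labelled FOXM1 siRNA and 393 in the sample labelled non-target siRNA, and 224851_at with 270 in the sample labelled FOXM1 siRNA and 301 in the sample labelled non-target siRNA. Another (243000_at) went the other way, with 127 in the sample labelled FOXM1 siRNA and 436 in the sample labelled non-target siRNA, 3.43-fold lower. The log2 differences of these 4 had an SD of 1.04, about 2 times the typical 0.50, and ran from -1.78 to 0.69. One more (207143_at) read 78.8 in the sample labelled FOXM1 siRNA, barely above its floor, and 50.7 in the sample labelled non-target siRNA, at least 1.30-fold higher. The last pair, 231198_at and 235287_at, lay below both floors. The median over the 5 informative probe sets was -0.03, so no direction for CDK6 was shared by its probe sets.

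**Figure D2:**
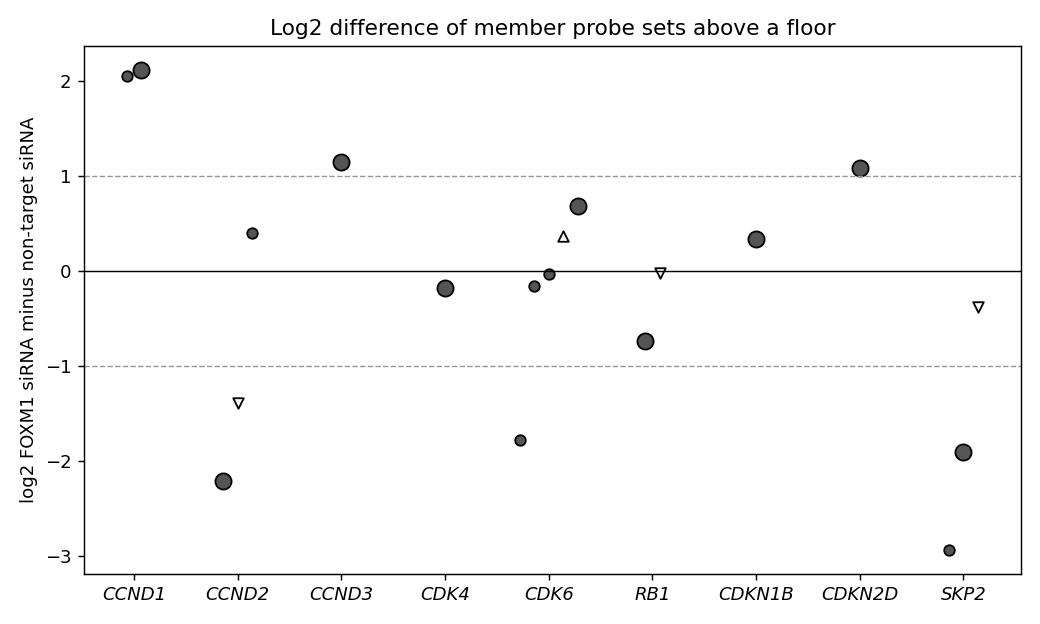
Log2 difference (FOXM1 siRNA minus non-target siRNA) of the 19 member probe sets above a floor, by gene. Large circles are the probe sets that represent the genes, small circles the others above both floors, open triangles are bounds, and dashed lines mark 2-fold. CCND1 lies near 2.1 in both probe sets, and CDK6 runs from -1.78 to 0.69.

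RB1, the pocket protein that holds E2F factors in check and is the main substrate of the D-cyclin kinases, was on the lower side. Its brightest probe set (203132_at) read 1927 in the sample labelled FOXM1 siRNA and 3210 in the sample labelled non-target siRNA, 1.67-fold lower (log2 difference -0.74). Its second probe set read 48.7 in the sample labelled FOXM1 siRNA, below the floor, and 78.8 in the sample labelled non-target siRNA, which sets a bound of only 1.01-fold. RB1 transcript was thus well above the floor on both arrays.

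Of the inhibitors, CDKN2D was higher and CDKN1B differed little. CDKN2D (p19), an INK4 inhibitor of CDK4 and CDK6, read 260 in the sample labelled FOXM1 siRNA and 122 in the sample labelled non-target siRNA, 2.13-fold higher (log2 difference 1.09). It is the dimmest of the represented genes against its floors, and with the hybridisation controls set equal it was at 0.79, under 2-fold. Its other probe set was below both floors, at 28.5 in the sample labelled FOXM1 siRNA and 2.77 in the sample labelled non-target siRNA. CDKN1B, the substrate of SKP2, read 3018 in the sample labelled FOXM1 siRNA and 2387 in the sample labelled non-target siRNA, a log2 difference of 0.34 that lies within the probe set SD of 0.50.

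SKP2 was lower in all 3 of its probe sets. The brightest (203625_x_at) read 2133 in the sample labelled FOXM1 siRNA and 8003 in the sample labelled non-target siRNA, 3.75-fold lower. The next (210567_s_at) read 214 in the sample labelled FOXM1 siRNA and 1641 in the sample labelled non-target siRNA, 7.66-fold lower. The dimmest (203626_s_at) read 46.6 in the sample labelled FOXM1 siRNA, below the floor, and 101 in the sample labelled non-target siRNA, at least 1.30-fold lower. The SKP2 protein controls p27 by degradation, which an RNA array does not read, so the p27 protein was not measured here. With a log2 difference of -1.91, SKP2 had 4.75% of detected genes below it. As for CCND2, all of its probe sets are of kinds that can match more than 1 transcript.

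Sequence around the start sites is shown for 3 members that differ in direction or size, SKP2, CCND3 and CDKN1B, because the siRNA was directed at a forkhead factor and 2 of these windows hold the forkhead core letters TAAACA or their reverse complement. RefSeq windows of 300 bases on GRCh38.p14, from 250 bases before a start site to 50 after it, were at hand for 8 of the 10 genes, 13 windows in all. The letters occurred in 12.3% of 35116 such windows of all genes and in 3 of the 13, 1 window each of CCND3, CDKN1B and CDKN2C. The SKP2 window held none. The E2F letters TTTCCCGC, TTTGGCGC or TTTCGCGC (2.74% of all windows) and TTTGAA, the core of the cell cycle homology region (15.2%), were in none of the 13 on either strand. The single RB1 window (chr13:48476200-48476499, 38.3% G and C) covers 1 listed start site. Other RB1 start sites were not searched, so the absence of these letters holds for that window only. The 170 bases printed run from 150 before the start site to 20 after it, in the direction of transcription, with capitals marking the forkhead letters.
SKP2, chr5:36151961-36152130, plus strand: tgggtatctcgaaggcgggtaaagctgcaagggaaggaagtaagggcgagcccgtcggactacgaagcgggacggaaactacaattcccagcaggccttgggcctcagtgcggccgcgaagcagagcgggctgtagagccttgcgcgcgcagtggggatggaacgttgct
CCND3, chr6:42048669-42048838, minus strand: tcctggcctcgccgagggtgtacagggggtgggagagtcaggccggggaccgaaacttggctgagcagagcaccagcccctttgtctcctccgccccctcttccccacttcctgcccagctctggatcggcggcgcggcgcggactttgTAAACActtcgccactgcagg
CDKN1B, chr12:12717218-12717387, plus strand: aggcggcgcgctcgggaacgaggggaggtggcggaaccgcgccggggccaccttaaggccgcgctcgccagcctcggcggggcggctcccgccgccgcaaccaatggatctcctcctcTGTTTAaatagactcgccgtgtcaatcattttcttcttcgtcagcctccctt
In CCND3 the letters begin 1 base before the start site and span it, and this is the most upstream of 3 start sites listed for the gene with a window. In CDKN1B they lie on the opposite strand and begin 32 bases before the start site. A match in these windows is a description of letters, and binding was not measured.

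Beyond these genes, the G1/S network was described through 5 lists, also chosen with earlier results of these data known. Of 56 genes with a probe set, 55 were detected; 3 passed 2-fold on the higher side and 12 on the lower side in the sample labelled FOXM1 siRNA, beside 16.0% and 15.4% of all detected genes. The median log2 difference of the lists together was -0.39.

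**Figure D3:**
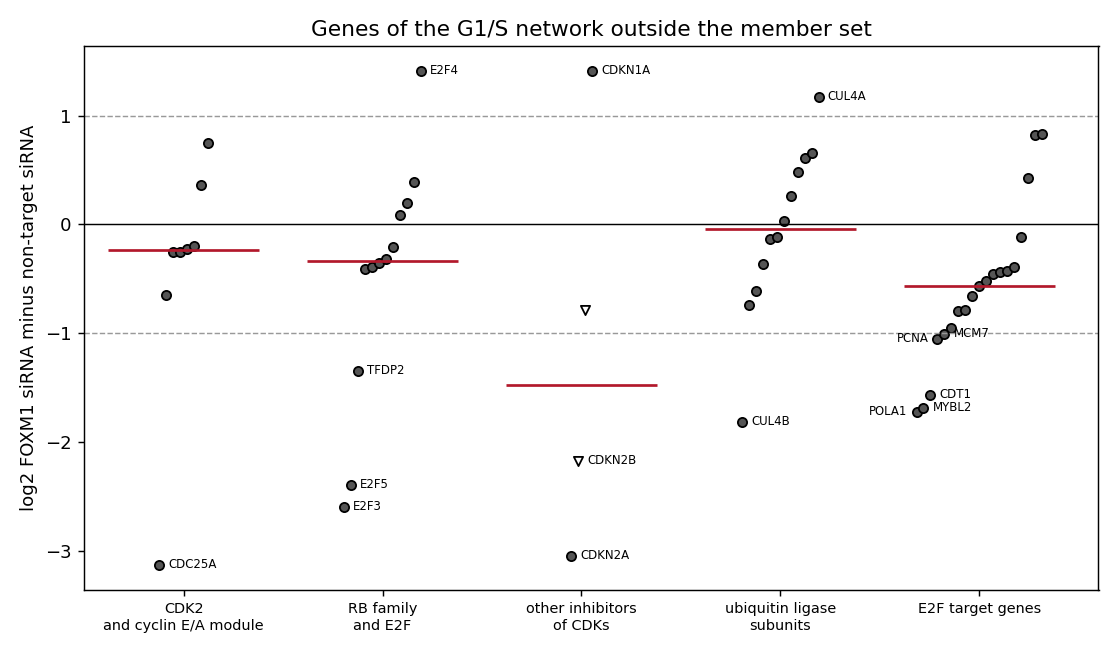
Log2 difference (FOXM1 siRNA minus non-target siRNA) of the 55 detected genes of 5 G1/S lists, each point 1 gene by its brightest probe set. Open triangles are bounds, red bars the list medians and dashed lines 2-fold, and genes at or beyond 2-fold are named. The E2F target list has 5 of 19 genes below the lower dashed line and none above the upper one, beside 15.4% and 16.0% of all detected genes.

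Of 8 detected genes in the list of CDK2, its cyclins and its activators, 1 passed 2-fold on the lower side and none on the higher side (median -0.24). Over all detected genes these shares were 15.4% and 16.0%. CDC25A, the phosphatase that removes inhibitory phosphates from CDK2, read 414 in the sample labelled FOXM1 siRNA and 3627 in the sample labelled non-target siRNA, 8.75-fold lower, and its 3 probe sets ran from -3.13 to -1.22. CCNE1, CCNA2 and CDK2 were at -0.20, -0.25 and -0.22 on the log2 scale, and CCNE2 was 1.56-fold lower. CDK7 and CCNH, subunits of the kinase that activates CDKs, were at 0.74 and 0.37. MNAT1, a further subunit of that kinase, was at -0.25. CCNA1 was below both floors.

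Of 12 RB family and E2F genes, 1 passed 2-fold on the higher side and 3 on the lower side (median -0.33). The shares over all detected genes were 16.0% and 15.4%. E2F3, an activating E2F, read 735 in the sample labelled FOXM1 siRNA and 4433 in the sample labelled non-target siRNA, 6.03-fold lower, and its second probe set gave -1.74. E2F5, a repressor E2F that partners pocket proteins, was 5.27-fold lower. The E2F partner gene TFDP2, named after its value was seen, was 2.54-fold lower, and its probe sets with a difference ran from -1.34 to -0.39. E2F4, the other main repressor E2F, was higher by 1.41 on the log2 scale in its brightest probe set and by 0.12 in the other. E2F1 was at 0.20 in its brightest probe set and at 2.34 in the other. RBL1 and RBL2, the p107 and p130 relatives of RB1, were at 0.39 and -0.21. The detected probe sets ran from 0.39 to 1.14 for RBL1 and from -0.56 to -0.21 for RBL2.

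Of the other CDK inhibitors, CDKN1A (p21) was 2.66-fold higher, CDKN2A (p16 and ARF) 8.24-fold lower and CDKN2B (p15) at least 4.50-fold lower, the last below the floor in the sample labelled FOXM1 siRNA. CDKN2A read 421 in the sample labelled FOXM1 siRNA and 3467 in the sample labelled non-target siRNA. U87 cells are known to lack CDKN2A and CDKN2B through a homozygous deletion, yet CDKN2A was above the floor on both arrays in 2 probe sets, which goes against the label of the cells, and CDKN2B was above it in the sample labelled non-target siRNA alone. Therefore an effect of the siRNA and a difference between the cells cannot be told apart in any value given here. CDKN1C (p57) was at least 1.72-fold lower, below the floor in the sample labelled FOXM1 siRNA.

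Of 12 ubiquitin ligase subunit genes detected, 10 were under 2-fold, beside 68.6% of all detected genes, those without a fold included. Among these 10 were the partners of SKP2: SKP1 at 0.48, CUL1 at -0.36 with a second probe set at 0.11, RBX1 at 0.03 and the accessory factor CKS1B at -0.13. CUL4B, a cullin scaffold, read 1881 in the sample labelled FOXM1 siRNA and 6624 in the sample labelled non-target siRNA, 3.52-fold lower in its brightest probe set, and its 4 probe sets ran from -1.82 to -0.96. Its paralogue CUL4A, named after its value was seen, was 2.25-fold higher, with probe sets from -0.06 to 1.49. AMBRA1, which directs the CUL4 ligase to D-type cyclins, was at 0.61 in one probe set and -0.47 in the other, and the adaptor gene DDB1 was at -0.61. FBXO4 and FBXO31, F-box proteins reported to bind cyclin D1, were at 0.66 and -0.74.

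The E2F target genes leaned to the lower side. Of 19 detected, 5 passed 2-fold on the lower side and none on the higher side, 16 lay below 0, and the median was -0.57. Over all detected genes, 15.4% passed 2-fold on the lower and 16.0% on the higher side, and the median was -0.02. POLA1, the catalytic subunit of polymerase alpha, was 3.31-fold lower, and MYBL2, a transcription factor of the DREAM switch, 3.22-fold. The licensing factor gene CDT1 was 2.96-fold lower, the sliding clamp gene PCNA 2.07-fold and the helicase subunit gene MCM7 2.01-fold. The 3 targets above 0 were RRM2 at 0.83, TK1 at 0.82 and MCM5 at 0.43, so the direction was not shared by all. Under median centring, quantile or loess scaling, or a pseudocount of 50, 4 of the 19 were at least 2-fold lower. Across these settings 14.7% to 15.6% of all detected genes were that low. With the hybridisation controls set equal, which shifts every gene down by 0.30, 8 of the 19 were, beside 23.1% of all detected genes.

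Genes beside each member on its chromosome were read in the same way, as the 3 nearest detected protein-coding genes on each side, by order only. Of these 60 genes, of which 58 had a log2 difference, 15.0% passed 2-fold on the higher side and 21.7% on the lower side, beside 16.0% and 15.4% of all detected genes.

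**Figure D4:**
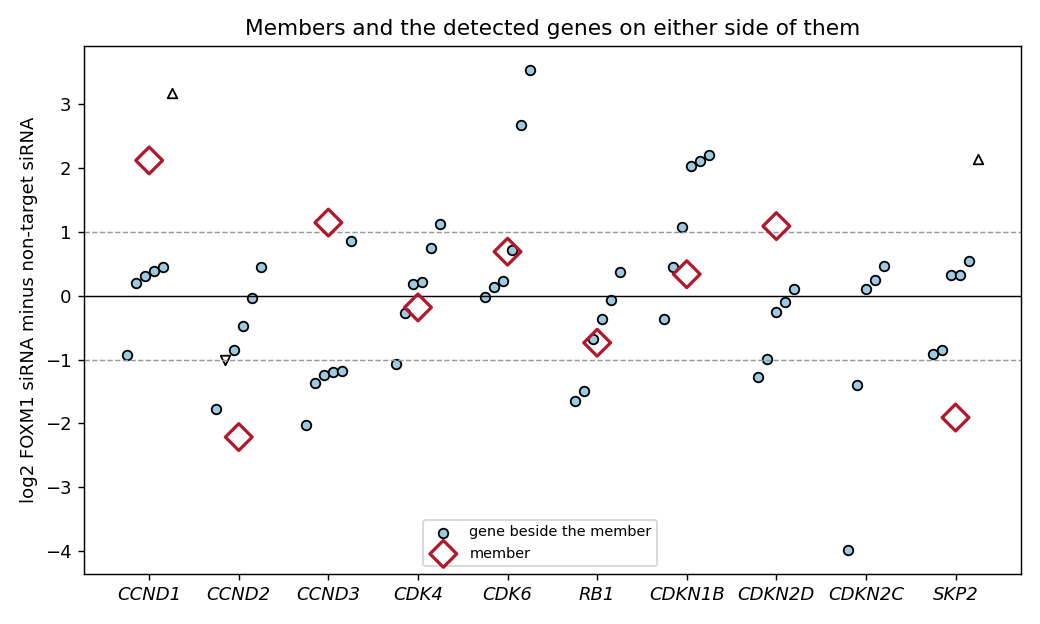
Log2 difference (FOXM1 siRNA minus non-target siRNA) of 9 members (red diamonds) and of the detected genes on either side of all 10 (small symbols, with triangles for bounds); dashed lines mark 2-fold. CCND3 lies above 5 lower neighbours, and 4 neighbours of CDKN1B lie above the upper dashed line while CDKN1B does not.

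Around CCND3, on chromosome 6, 5 of 6 neighbours were at least 2-fold lower, USP49, the Mediator subunit gene MED20, the ribosome assembly gene BYSL, the TFIID subunit gene TAF8 and the mitochondrial ribosome gene MRPS10, with log2 differences from -2.03 to -1.17, while CCND3 was higher. Further probe sets of USP49, MED20, TAF8 and MRPS10 went the same way by less, in the highest case by -0.03 for MRPS10. Around CDKN1B, on chromosome 12, 4 of 6 neighbours were at least 2-fold higher, GPR19 by 4.60-fold, GPRC5A by 4.32-fold, APOLD1 by 4.08-fold and HEBP1 by 2.11-fold, while CDKN1B was at 0.34. At both loci most detected neighbours thus passed a threshold that the member did not pass in the same direction. At the other loci the neighbours past 2-fold were single genes or pairs. RB1, on chromosome 13, had 2 lower neighbours, MED4 (3.13-fold) and SUCLA2 (2.81-fold), both on the same side. Next to CDK6, on chromosome 7, the interferon-inducible genes SAMD9 and SAMD9L were 11.6-fold and 6.38-fold higher. CCND2 had CRACR2A 3.40-fold and FGF6 at least 2.01-fold lower beside it, and CCND1 had MRGPRF at least 9.04-fold higher. Beside CCND2 and CCND1 the direction of these neighbours was that of the member. CDK4 had 1 higher and 1 lower neighbour, B4GALNT1 at 2.18-fold and CYP27B1 at 2.10-fold. CDKN2D had KRI1 2.41-fold lower and SKP2 had IL7R at least 4.43-fold higher. The largest neighbour difference was beside CDKN2C, the member with no value. There FAF1, a Fas-binding ubiquitin regulator gene, read 230 in the sample labelled FOXM1 siRNA and 3630 in the sample labelled non-target siRNA, 15.8-fold lower, with a second probe set at -3.30. TTC39A, on the other side of CDKN2C, was 2.62-fold lower.

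Measures of the cultures and of control transcripts also moved between the arrays. The 4 mesenchymal markers VIM, CD44, TNC and FN1 were above the floor on both arrays, with a summed signal of 110035 in the sample labelled FOXM1 siRNA and 27359 in the sample labelled non-target siRNA. By gene, VIM was 1.89-fold, CD44 13.2-fold, TNC 14.1-fold and FN1 9.12-fold higher in the sample labelled FOXM1 siRNA. Sums here are weighted to the brightest probe sets, which share no common scale, and include signals below the floor. Of 7 glial markers, 3 were above the floor in the sample labelled FOXM1 siRNA and 4 in the sample labelled non-target siRNA, with summed signals of 1890 in the sample labelled FOXM1 siRNA and 2009 in the sample labelled non-target siRNA. Within that list SOX2 was at least 8.75-fold lower and NES at least 4.29-fold higher. GFAP and AQP4, which define astrocytes, were below both floors. Of 5 epithelial markers, 3 were above the floor on each array, with summed signals of 768 in the sample labelled FOXM1 siRNA and 3055 in the sample labelled non-target siRNA. KRT18 read 380 in the sample labelled FOXM1 siRNA and 2655 in the sample labelled non-target siRNA, where it made up most of the sum. CDH1 was at least 1.45-fold lower, below the floor in the sample labelled FOXM1 siRNA. KRT8 was 1.20-fold higher and EPCAM at least 1.62-fold higher, the latter below the floor in the sample labelled non-target siRNA. KRT19 was below both floors. The 2 measured immune markers, PTPRC and CD14, were below both floors. Of 3 neuronal markers, 2 were above the floor in the sample labelled FOXM1 siRNA and 1 in the sample labelled non-target siRNA, with TUBB3 high in both and RBFOX3 below both floors. Of 3 endothelial markers, 2 were above the floor in the sample labelled FOXM1 siRNA and 1 in the sample labelled non-target siRNA. CDH5 was below both floors. PECAM1 was above both, but read 62.8 in the sample labelled non-target siRNA, where the floor was 60.8. For ACTB, the ratio of 3' to 5' control signal was 4.21 in the sample labelled FOXM1 siRNA and 6.79 in the sample labelled non-target siRNA. For GAPDH it was 1.09 in the sample labelled FOXM1 siRNA and 1.26 in the sample labelled non-target siRNA. The part of these differences in the G1 gene values was not tested.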

How the data were processed

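Total RNA of 2 cultures was labelled by a 3' in vitro transcription kit, per the labels' protocols, so values report mainly transcript 3' ends. The deposited values are linear signal intensities made with MAS5, per the submitters' processing notes; the sources used here give neither version nor settings. Trimmed means (2% off each end) were 500.07 on both arrays. Names came from the platform annotation: 41097 had 1 symbol, 1801 several and 11777 none; symbols were updated through the gene ID.

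The floor was the 90th percentile of 135 olfactory receptor probe sets. Detected genes were above it on at least 1 array in their brightest probe set (highest mean log2 signal); 416 with a bound under 1 got no fold. The threshold was 2-fold. No test was possible with 1 array per group, and array number limits the precision. The rule named all members, up to 4 genes per list with the largest difference whose detected probe sets agree in sign, and neighbours beyond 2-fold; other list genes in the text were named for their role or value, after values were seen. Members and lists were chosen with earlier results of these data known. The calculation was tested on simulated data with known shifts well beyond the threshold, in genes bright on both arrays. That test does not cover differences near the threshold or values near the floor. As alternatives, arrays were median centred or scaled by quantile or loess (limma 3.58.1, R 4.3.3, span 0.3), with further settings for hybridisation controls set equal, 3 other floor settings, a pseudocount of 50, the median of probe sets, no _x_at or _s_at probe sets and a 1.5-fold threshold; the rest used Python 3.11.15 with pandas 2.3.3.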

Additional observations from a re-analysis of the deposited data

How the results depend on the processing

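The counts of 3 higher and 2 lower G1 genes did not change under median centring, quantile or loess scaling, a common floor, a doubled floor, no floor or the median of probe sets. Across these settings 15.1% to 23.2% of all detected genes were higher and 13.6% to 19.2% lower. With the hybridisation controls set equal, 1 gene, CCND1, was at least 2-fold higher, beside 11.3% of all detected genes. RB1 joined the lower ones at -1.04, which made 3 of 9, beside 23.1% of all detected genes. The median of all detected genes was then -0.30. With a pseudocount of 50, 2 genes were higher, beside 15.2% of all detected genes. Without _x_at and _s_at probe sets 0 genes were lower, since CCND2 and SKP2 have only such probe sets. CCND1 and CCND3 were the 2 higher genes, since the only CDKN2D probe set above a floor is also of this kind. The single CDK4 probe set is too, and 5 genes remained measured. In the 5 G1/S lists, 7 genes of 43 were then lower and 2 higher, beside 15.1% and 16.1% of all detected genes. In the RB family and E2F list 0 were lower and 2 were higher. At a 1.5-fold threshold the lists had 8 higher and 20 lower genes of 55, beside 26.1% and 26.8% of all detected genes. With the median of probe sets, CCND2 was at -1.39, CDK6 at -0.03 and the median of the 9 genes at -0.03. No paired analysis was possible because each group has 1 array, and no array could be left out. Differences near the floor, as for CDKN2D, rest on low signal over background.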
